A study of Mus musculus with 20 samples.

Results

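The 10 genes described here encode products of neutrophils and of the acute-phase response, and they were taken by name from 35579 genes measured in mouse hindlimb: S100a8, S100a9, Lcn2, Saa3, Hp, Retnlg, Csf3r, Fpr1, Acod1 and Il4ra. They and the gene lists used below were chosen with earlier results of these data known. Their shares of calls beside those of all genes are therefore descriptive. The samples came from the left hindlimb of wild-type (WT) C57BL/6J mice, collected 70 days after no irradiation (sham) or after 35 Gy of electrons given either at the ultra-high dose rate called FLASH or at the conventional one (CONV). RNA of skin and of skeletal muscle was sequenced in 3 sham, 4 FLASH and 3 CONV libraries per tissue, 20 in all. The labels number the replicates without saying that they are different animals, and the p-values reflect only how these libraries vary, part of which may be technical. All skin belonged to batch 1 and all muscle to batch 2, so tissue and batch cannot be told apart.

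Neutrophils reach injured skin from the blood, guided by chemokines and by bacterial and mitochondrial formyl peptides, and carry proteins that bind metals and iron carriers in their cytoplasm and granules. Acute-phase proteins are secreted during inflammation, mainly by the liver, but in the mouse serum amyloid A3 and haptoglobin are also made outside the liver, for instance by macrophages, fibroblasts and adipocytes. Several of these genes are not restricted to neutrophils: keratinocytes of injured epidermis make S100a8, S100a9 and Lcn2, and activated macrophages make Acod1.

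Promoter sequences show what stands next to the start sites of the 4 secreted or cytoplasmic effectors that dominated the levels in CONV skin or that overlapped between groups. The windows run from 250 bases before to 50 bases after the RefSeq start on GRCm38.p6, 5′ to 3′ on the strand of the gene, and 9 of the 10 genes had one. Capitals mark matches, on either strand, to GGGNNNNNCC (NF-kappaB), TTGCNNAA (C/EBP) or TATAAA (named after its first letters). The windows are chr3:90668821-90669120 (plus strand) for S100a8, chr3:90695672-90695971 (minus) for S100a9, chr2:32387690-32387989 (minus) for Lcn2 and chr7:46715627-46715926 (minus) for Saa3.
S100a8: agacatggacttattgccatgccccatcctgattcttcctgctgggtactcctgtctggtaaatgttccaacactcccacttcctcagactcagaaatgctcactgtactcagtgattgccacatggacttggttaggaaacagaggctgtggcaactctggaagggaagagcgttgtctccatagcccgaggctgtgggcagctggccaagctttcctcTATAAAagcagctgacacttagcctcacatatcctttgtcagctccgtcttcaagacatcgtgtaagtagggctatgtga
S100a9: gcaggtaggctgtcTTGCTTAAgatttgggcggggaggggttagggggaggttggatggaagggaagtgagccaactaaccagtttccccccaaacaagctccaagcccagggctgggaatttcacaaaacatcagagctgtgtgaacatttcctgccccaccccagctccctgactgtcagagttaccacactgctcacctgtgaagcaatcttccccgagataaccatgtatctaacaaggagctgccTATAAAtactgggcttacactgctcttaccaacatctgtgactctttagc
Lcn2: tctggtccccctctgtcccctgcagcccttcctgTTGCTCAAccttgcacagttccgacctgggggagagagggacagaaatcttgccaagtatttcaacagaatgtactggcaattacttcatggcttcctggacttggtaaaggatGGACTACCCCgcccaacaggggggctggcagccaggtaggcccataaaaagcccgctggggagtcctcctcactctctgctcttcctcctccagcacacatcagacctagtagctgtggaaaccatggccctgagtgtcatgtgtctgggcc
Saa3: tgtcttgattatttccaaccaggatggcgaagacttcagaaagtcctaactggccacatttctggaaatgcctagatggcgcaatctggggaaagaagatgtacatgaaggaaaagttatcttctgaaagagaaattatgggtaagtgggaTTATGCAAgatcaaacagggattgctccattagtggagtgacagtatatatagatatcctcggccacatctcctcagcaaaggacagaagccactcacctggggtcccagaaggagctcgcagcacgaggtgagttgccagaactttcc
The C/EBP letters stood in the windows of S100a9, Lcn2, Saa3 and Retnlg, which is 4 of 9, against 10.8% of 27025 promoters of the same length. TATAAA stood in those of S100a8, S100a9, Acod1 and Fpr1, 4 of 9 against 14.2%, and it began at position -30 from the start site in S100a8, -28 in Acod1, 1 in S100a9 and -227 in Fpr1. The NF-kappaB letters stood in those of Lcn2, Csf3r, Acod1 and Il4ra, also 4 of 9, against 50.4%. The AP-1 letters TGANTCA and the STAT letters TTCNNNGAA stood in 0 of the 9 windows, against 7.93% and 8.47% of all promoters. These are letter matches in short windows, and no binding was measured.

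The libraries held 24396463 to 33250762 estimated counts for skin, and muscle libraries 10198699 to 12336479, so a low gene was measured less precisely in muscle. In 7 records, 2 of skin (sham replicate 3 and FLASH replicate 1) and 5 of muscle, the deposited file carried the library name of another sham or FLASH record. Groups follow the records, and no CONV file was affected, so CONV against the other 7 libraries of a tissue is the same under either assignment. Summed levels of 4 skeletal muscle markers reached 16858 and 15758 CPM (counts scaled to a common library size) in skin sham replicate 1 and FLASH replicate 2, against 27.2 to 1994 CPM in the other 8 skin libraries. In the muscle libraries the same sum was 38267 to 70832 CPM. The 4 keratinocyte markers summed to 5296 to 39211 CPM in skin and to 0.573 to 6.62 CPM in muscle, so both tissues held their own markers.

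In skin, all 10 genes had higher fitted levels in the 3 CONV libraries than in the other 7, and 6 of them rose: Retnlg, Acod1, Fpr1, Saa3, Csf3r and Il4ra (edgeR's quasi-likelihood test, Benjamini-Hochberg adjusted p of 0.0352 to 0.0483 over 20026 genes). Over all genes tested, 1.58% were called higher in this comparison. The changes of the 10 genes ran from 2.27 (Il4ra) to 7.20 (Retnlg) on the log2 scale with a median of 5.35, whereas the median over all genes tested was 0.00. The other 4 genes had adjusted p of 0.0853 to 0.103 in edgeR: S100a9, Lcn2, Hp and S100a8. The lowest CONV library lay above the highest of the other 7 for 8 of the 10 genes, all but Lcn2 and Hp, where 3.85% of all genes did so. In bulk tissue, a larger number of cells of a type and more RNA per cell cannot be told apart.

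The 6 calls depended on which libraries were in the fit. None of the 10 genes was called in edgeR without sham replicate 1, 2 or 3, without FLASH replicate 1, 2 or 3, or without CONV replicate 3, and 2 were called without CONV replicate 2, where 0.722% of all genes were called higher. In each fit that left out a sham library or FLASH replicate 1, 2 or 3, no gene of the whole table passed. Without CONV replicate 3, no gene of the whole table was called higher. Without FLASH replicate 4, 9 of the 10 were called, all but Hp, and 5.88% of all genes were called higher. The 6 calls were kept without CONV replicate 1, where 1114 of 20383 genes were called higher. None was called without the 2 libraries whose file name disagrees with the record, or without the 2 libraries rich in muscle markers. No gene of the whole table passed in either fit. DESeq2 called all 10, with 6.58% of all genes called higher. In every one of these fits, the change of each of the 10 genes kept its positive sign, from 1.20 (Hp without CONV replicate 3) to 10.9 (Acod1 without FLASH replicate 4) on the log2 scale.

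**Figure D1:**
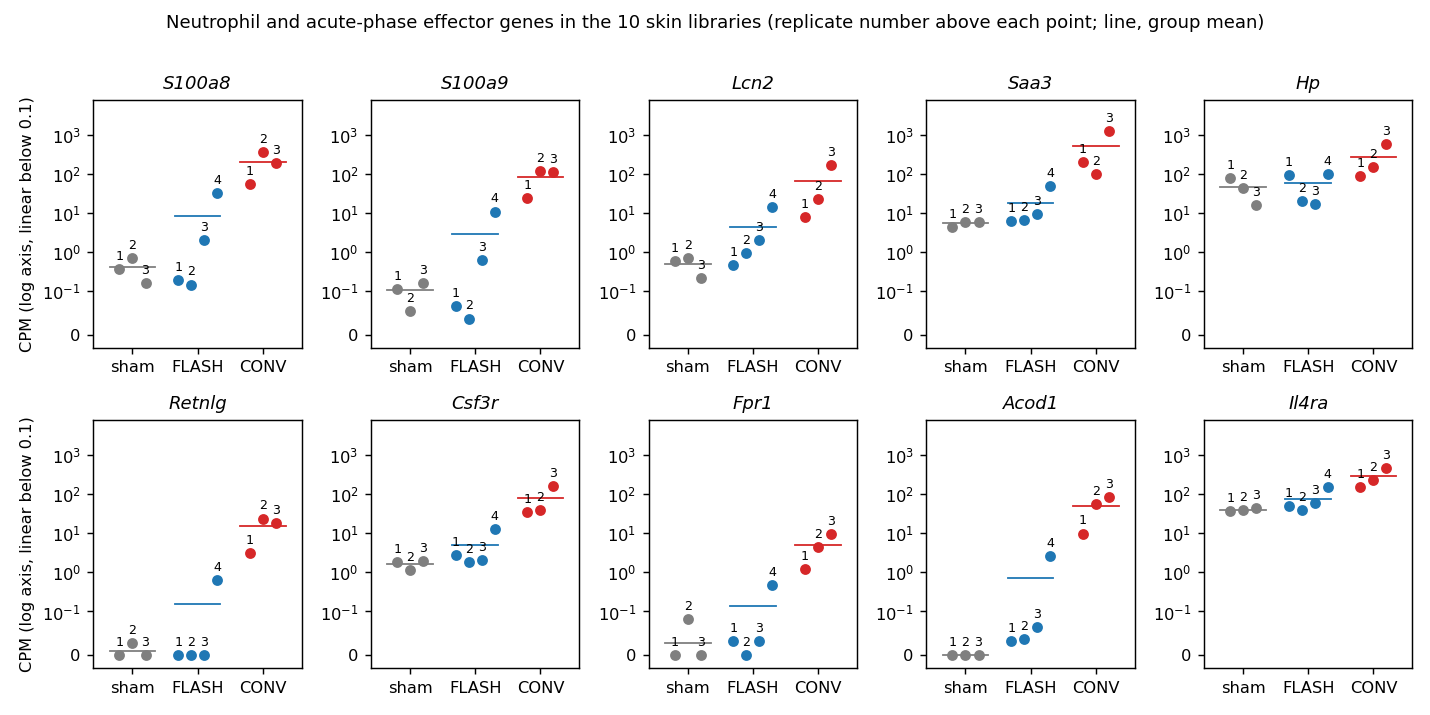
Level of each of the 10 genes in each skin library, in CPM on a logarithmic axis that is linear below 0.1, with the replicate number above each point and the group mean as a line. FLASH replicate 4 lies between the other FLASH libraries and CONV for 8 genes, and the CONV libraries are spread over more than 3-fold for every gene.

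S100a8 (chromosome 3, 90668978 to 90670035, plus strand) and S100a9 (chromosome 3, 90692632 to 90695721, minus strand) encode the subunits of calprotectin, a metal-binding protein that makes up much of the neutrophil cytoplasm. The level of S100a8 was 0.375, 0.719 and 0.160 CPM in sham, 0.198, 0.150, 2.12 and 32.3 CPM in FLASH and 54.6, 360 and 198 CPM in CONV, in order of replicate. S100a9 stood at 0.113, 0.0553 and 0.160 CPM in sham, 0.0659, 0.0375, 0.633 and 11.1 CPM in FLASH and 23.9, 121 and 112 CPM in CONV. FLASH replicates 1 and 2 lay within or below the sham range, FLASH replicate 3 lay above it, and FLASH replicate 4 approached CONV replicate 1. The group means of S100a8 were 204 ± 153 CPM (SD, n = 3) in CONV and 5.14 ± 12.0 CPM (SD, n = 7) in the other libraries. Against those 7 libraries the changes were 5.30 ± 1.58 (log2 ± SE) for S100a8 and 5.61 ± 1.53 for S100a9, with edgeR adjusted p of 0.103 and 0.0854, so neither passed, although no library of the other groups reached the lowest CONV library. The TPM of S100a8 over that of S100a9 was 2.47, 3.20 and 1.90 in the CONV libraries and 3.15 in FLASH replicate 4.

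Lcn2 (chromosome 2, 32384633 to 32388252, minus strand) encodes lipocalin 2, which withholds iron from bacteria by binding their siderophores. Its level was 0.601, 0.719 and 0.223 CPM in sham, 0.462, 0.937, 2.02 and 14.2 CPM in FLASH and 8.01, 23.8 and 173 CPM in CONV. CONV replicate 3 held 84.4% of the CPM summed over the 3 CONV libraries, and FLASH replicate 4 lay above CONV replicate 1, so the groups overlapped. The change against the other 7 libraries was 4.63 ± 1.27 (log2 ± SE, edgeR adjusted p = 0.0853), and it was 2.50 without CONV replicate 3.

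Saa3 (chromosome 7, 46711998 to 46715700, minus strand) encodes serum amyloid A3, the form of this acute-phase protein that mice make in inflamed tissue outside the liver. It stood at 4.43, 6.14 and 5.97 CPM in sham, 6.40, 6.64, 9.40 and 50.1 CPM in FLASH and 202, 102 and 1313 CPM in CONV. All FLASH libraries lay above all sham libraries, 3 of them by little. This does not hold with files assigned by library name, where sham replicate 3 and FLASH replicate 1 change places. CONV replicate 3 held 81.2% of the CPM summed over CONV. The group mean was 539 ± 672 CPM (SD, n = 3) in CONV and 12.7 ± 16.6 CPM (SD, n = 7) in the other libraries, a change of 5.40 ± 0.95 (log2 ± SE, edgeR adjusted p = 0.0375). Without CONV replicate 3 the change was 3.56 with an adjusted p of 0.226 in edgeR.

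The sum over transcripts hid a difference between Saa3 transcripts. Saa3-201, the spliced coding transcript of 4 exons and 555 bases, had an estimated count of 0 in the 3 sham libraries and in FLASH replicates 1 and 2. Its count was 140 in FLASH replicate 3, 1449 in FLASH replicate 4, and 5067, 1978 and 39087 in the CONV libraries. Saa3-202, a transcript of 2200 bases whose exon 2 (chromosome 7, 46712959 to 46715104) covers the intron between exons 2 and 3 of Saa3-201 in part, held nearly all counts of the gene in sham. Its counts were 118 to 215 in sham, 157 to 202 in FLASH and 236, 172 and 1728 in CONV. The gene-level counts of sham skin were thus assigned to intron-containing sequence, and the depth-scaled count of Saa3-201 in CONV was at least 17190-fold higher than the sham floor of 3 counts over the group, while that in FLASH was at least 410.9-fold higher. These transcript estimates divide reads that both share and were not tested, and the bounds cover counting error only. In muscle Saa3-201 was at 0 in all 10 libraries.

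**Figure D2:**
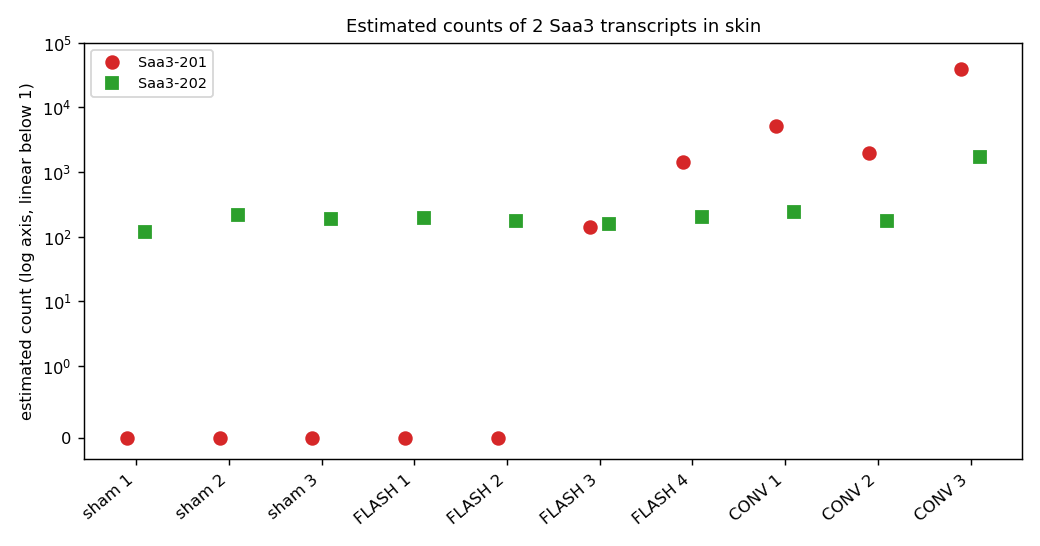
Estimated counts of the spliced transcript Saa3-201 (circles) and the intron-containing transcript Saa3-202 (squares) in each skin library, on a logarithmic axis that is linear below 1. Saa3-202 stays between 118 and 236 in every skin library but CONV replicate 3, while Saa3-201 is at 0 in 5 libraries and reaches 39087 in CONV replicate 3.

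Hp (chromosome 8, 109575128 to 109579172, minus strand) encodes haptoglobin, which binds free haemoglobin. Its level was 78.9, 43.9 and 16.5 CPM in sham, 95.7, 20.3, 17.1 and 100 CPM in FLASH and 90.1, 157 and 605 CPM in CONV. The sham and FLASH libraries already differed among themselves by several-fold, and FLASH replicates 1 and 4 lay above CONV replicate 1. The change of 2.42 ± 0.70 (log2 ± SE) did not pass in edgeR (adjusted p = 0.0974), and it was 1.20 without CONV replicate 3. Summed levels of 4 adipocyte markers also varied within groups, from 59.7 to 730 CPM in sham, 40.4 to 611 CPM in FLASH and 56.4 to 166 CPM in CONV; their part in the Hp levels was not tested.

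Retnlg (chromosome 16, 48872621 to 48874496, plus strand) encodes resistin-like gamma, a secreted protein of mouse neutrophils and bone marrow. Retnlg was at 0 in 5 of the 7 sham and FLASH libraries, at 0.0277 CPM (1 count) in sham replicate 2 and at 0.638 CPM in FLASH replicate 4, and it reached 3.21, 24.0 and 18.5 CPM in CONV. The change was 7.20 ± 1.17 (log2 ± SE, edgeR adjusted p = 0.0352) against the other 7 libraries. With 1 count in sham, the summed counts gave a CONV to sham ratio of 1302 with a 95% interval of 233 to 51480, which covers counting error only.

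Csf3r (chromosome 4, 126024550 to 126044440, plus strand) encodes the receptor for granulocyte colony-stimulating factor, which drives neutrophil production and survival. It stood at 1.80, 1.13 and 1.95 CPM in sham, 2.84, 1.80, 2.02 and 13.1 CPM in FLASH and 35.2, 38.7 and 165 CPM in CONV. Every CONV library lay above every other library, and the change was 4.50 ± 0.78 (log2 ± SE, edgeR adjusted p = 0.0366). Fpr1 (chromosome 17, 17876471 to 17883940, minus strand), the receptor through which neutrophils and monocytes sense formyl peptides, had 3 counts in sham, all in replicate 2, and 1, 0, 1 and 16 counts in FLASH, against 32, 97 and 296 counts in CONV. In CPM the CONV libraries stood at 1.22, 4.60 and 9.52, and the change was 5.70 ± 0.98 (log2 ± SE, edgeR adjusted p = 0.0352). The summed counts of Fpr1 gave a CONV to sham ratio of 158 with a 95% interval of 53.8 to 771.

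Acod1 (chromosome 14, 103046977 to 103056573, plus strand) encodes the enzyme that makes itaconate in activated macrophages and neutrophils. It had no count in the 3 sham libraries, stood at 0.0330, 0.0375, 0.0633 and 2.70 CPM in FLASH and reached 9.92, 57.5 and 83.3 CPM in CONV. Against the sham floor of 3 counts over the group, the summed CONV level was at least 1515-fold higher and the FLASH level at least 24.05-fold higher, and FLASH replicate 4 carried nearly all of the latter. These bounds follow the records. By library name, FLASH replicate 1 with its 1 count would be a sham library. The change of CONV against the other 7 libraries was 6.91 ± 1.46 (log2 ± SE, edgeR adjusted p = 0.0483), the highest adjusted p among the 6 calls.

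Il4ra (chromosome 7, 125552120 to 125579474, plus strand) encodes the receptor chain shared by interleukins 4 and 13, which many cell types carry. Its level was 36.5, 40.5 and 43.6 CPM in sham, 49.3, 40.5, 58.4 and 149.6 CPM in FLASH and 154, 237 and 476 CPM in CONV. FLASH replicate 4 nearly reached CONV replicate 1, and the change against the other 7 libraries was the smallest of the 10, 2.27 ± 0.46 (log2 ± SE, edgeR adjusted p = 0.0449). The coding transcript Il4ra-201 held 44.5% to 55.6% of the counts of the gene in sham and FLASH skin. In CONV it held 54.4%, 30.1% and 57.8%, and in replicate 2 the larger share, 58.5%, was assigned to Il4ra-205, annotated as a target of nonsense-mediated decay. The split between these transcripts rests on shared reads and was not tested.

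Between the single groups, the order for the 10 genes was sham, FLASH, CONV by group mean, but no adjusted p passed in edgeR. Against sham, CONV was higher for 10 of 10 at an unadjusted p under 0.05, where 12.0% of all genes were, with adjusted p of 0.127 to 0.199, and 10 of 10 lay above every sham library, where 13.6% of all genes did. DESeq2 called 8 of the 10 in this comparison, against 5.88% of all genes, and gave no p-value for S100a9 and Csf3r. With edgeR, 8 were called without FLASH replicate 4 (0.437% of all genes) and 5 without CONV replicate 1 (1.8% of all genes). Against FLASH, CONV was higher for 10 of 10 at an unadjusted p under 0.05 (8.56% of all genes), with edgeR adjusted p of 0.249 to 0.349, and 8 of 10, all but Lcn2 and Hp, lay above every FLASH library (4.73% of all genes). DESeq2 called 4 of these, namely Saa3, Acod1, Il4ra and Fpr1, where it called 1.99% of all genes higher. The comparisons with sham and with FLASH share the CONV libraries.

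FLASH and sham differed least. S100a8 and S100a9 had an unadjusted p under 0.05 (2 of 10, against 0.459% of all genes), with changes of 4.35 ± 1.86 and 4.74 ± 1.93 (log2 ± SE), and no gene of the 10 passed in edgeR, where the adjusted p was 1 throughout, or in DESeq2. Saa3 and Acod1 were the 2 genes with all FLASH libraries above all sham libraries, where 0.829% of all genes showed this. For Acod1 this rested on 1, 1 and 2 counts in FLASH replicates 1 to 3, against 0 in sham. For Saa3, FLASH replicates 1 and 2 stood at 6.40 and 6.64 CPM, against up to 6.14 CPM in sham, with no count of Saa3-201. With files assigned by library name, sham replicate 3 (5.97 CPM of Saa3, 0 counts of Acod1) and FLASH replicate 1 (6.40 CPM, 1 count) change places. Neither gene then has all FLASH libraries above all sham libraries. The other changes (log2 ± SE) were 3.53 ± 2.16 for Retnlg, 3.08 ± 1.46 for Lcn2, 2.06 ± 1.61 for Fpr1, 1.72 ± 1.03 for Saa3, 1.60 ± 0.85 for Csf3r, 0.89 ± 0.50 for Il4ra and 0.33 ± 0.87 for Hp. Acod1, with no count in sham, has only the lower bound given above, and Retnlg and Fpr1 rest on 1 and 3 sham counts, with FLASH to sham ratios of summed counts of 16.3 (95% interval of 2.62 to 674) and 4.66 (1.36 to 24.7). FLASH replicate 4 lay above all sham libraries for 10 of 10 genes, where 27.4% of all genes did so in that library, and FLASH replicates 1, 2 and 3 did so for 5, 3 and 7 of the 10, against 21.7%, 18.0% and 26.4% of all genes. Without FLASH replicate 4, Retnlg, Hp and Fpr1 had lower fitted levels in FLASH than in sham, and Hp also did with files assigned by library name.

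**Figure D3:**
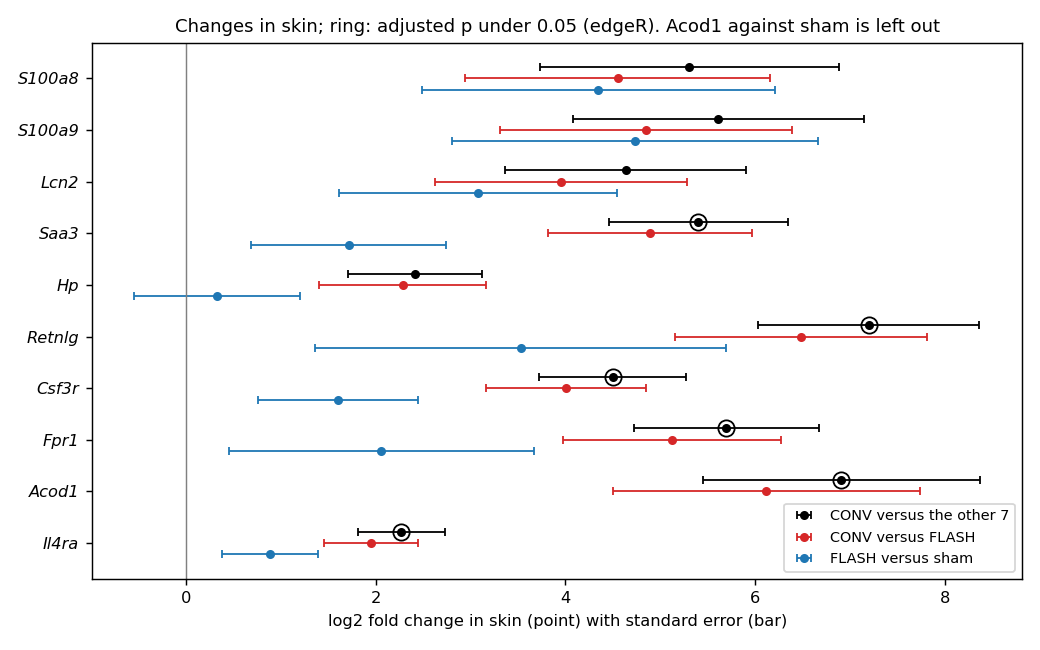
Log2 fold change (point) and standard error (bar) of the 10 genes in 3 comparisons of skin, with a ring around changes with an adjusted p under 0.05 in edgeR. Acod1, with no count in sham, is left out of FLASH against sham. The 6 ringed changes are all of CONV against the other 7 libraries, and no change of FLASH against sham is ringed.

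Which gene led within a library differed between the CONV libraries. On the TPM scale, which corrects for transcript length, the 10 genes summed to 67.3 to 227 TPM in the 3 sham libraries and FLASH replicates 1 to 3, to 793 TPM in FLASH replicate 4 and to 1677, 2952 and 9854 TPM in CONV. Saa3 led in CONV replicates 1 and 3 with 54.9% and 61.5% of that sum, whereas in CONV replicate 2 S100a8 led with 53.5% and Saa3 had 11.8%. The TPM of Saa3 over that of S100a8 was accordingly 2.96, 0.221 and 5.30 in the CONV libraries. S100a8, S100a9 and Retnlg peaked in CONV replicate 2, and the other 7 genes in CONV replicate 3. In sham and FLASH replicates 1 to 3, Hp or Il4ra held the largest share.

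**Figure D4:**
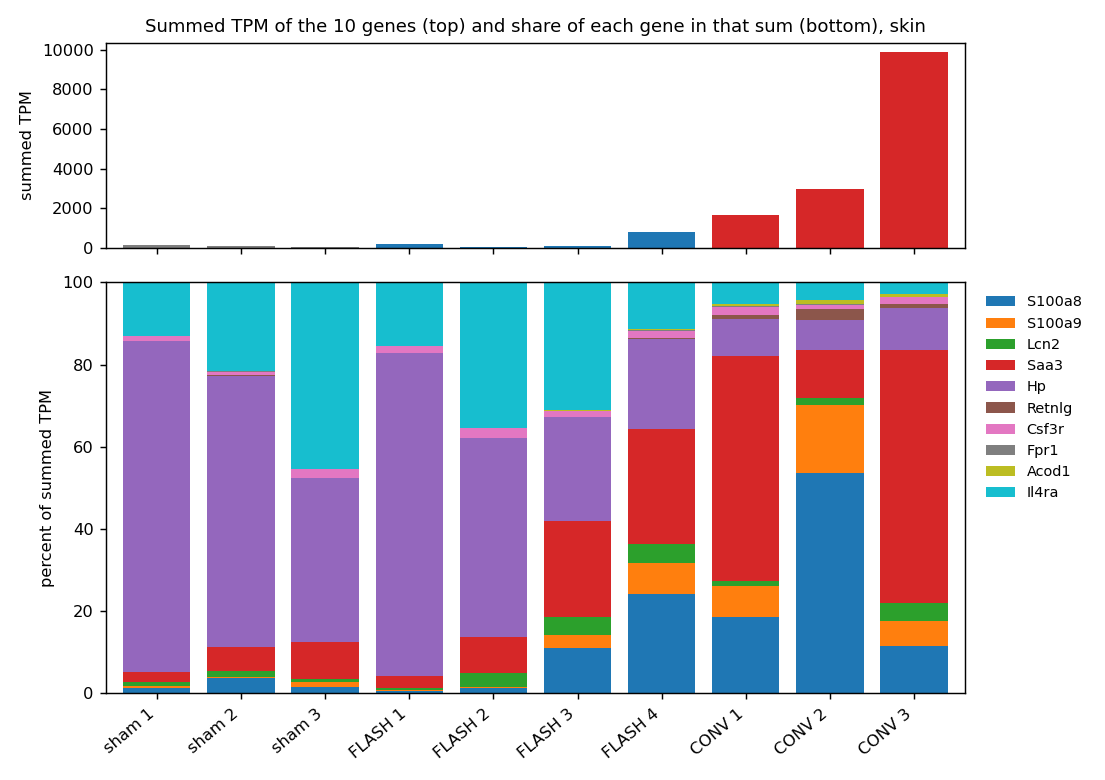
Summed TPM of the 10 genes in each skin library (top, linear axis from 0) and the share of each gene in that sum (bottom, percent). Hp and Il4ra make up most of the sum in sham and in FLASH replicates 1 to 3, Saa3 leads in CONV replicates 1 and 3, and S100a8 leads in CONV replicate 2.

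Other genes of the neutrophil programme were uneven. Over all genes tested, 1.58% were called higher in CONV skin against the other libraries. Among 12 listed granule and nuclear genes, 8 could be tested and 3 rose in CONV skin against the other libraries: Mmp8, the neutrophil collagenase, by 4.18 ± 0.65 (log2 ± SE), the surface protein gene Cd177 by 4.04 ± 0.75 and the gelatinase gene Mmp9 by 2.79 ± 0.48 (edgeR adjusted p of 0.0352 to 0.0387). Genes of granules laid down early in the bone marrow did not pass, with 0.03 ± 0.24 for Mpo (myeloperoxidase) and 0.31 ± 0.63 for Prtn3. Camp, a gene of a later granule type, had 0.27 ± 0.41. Ngp, another neutrophil granule gene, had 2.75 ± 0.68 (log2 ± SE, edgeR adjusted p = 0.0668) and did not pass. Ly6g, which defines mouse neutrophils in flow cytometry, had 0 to 2 counts in each sham and FLASH library and 3, 37 and 64 counts in the CONV libraries. Ltf, the lactoferrin gene, had 0 to 2 counts in each sham and FLASH library and 3, 47 and 22 counts in CONV. Both Ly6g and Ltf were too low to be tested. Ly6g, Ltf, Mpo, Prtn3, Camp and Ngp were all chosen from the list after their values were seen.

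Of 10 listed neutrophil receptor and adhesion genes, 6 rose in CONV skin, with a median log2 change of 2.24 over the list. Over all genes tested, 1.58% were called higher and the median was 0.00. They included Fpr2, another formyl peptide receptor gene, with 5.27 ± 0.99 (log2 ± SE), Trem1, which amplifies myeloid activation, with 5.07 ± 0.81, and the integrin gene Itgam with 2.07 ± 0.42 (edgeR adjusted p of 0.0352 to 0.0474). Of 11 tested signals that recruit or induce neutrophils, 7 rose, with a median of 4.32. Csf3, which encodes the ligand of Csf3r, rose by 4.32 ± 0.62, from 0.318 ± 0.275 CPM (SD, n = 7) to 6.45 ± 5.27 CPM (SD, n = 3), with an edgeR adjusted p of 0.0352. Il6, a main inducer of acute-phase genes in liver, was at 11.3, 1.75 and 89.6 CPM in the CONV libraries, in the same order as Saa3, and did not pass (5.06 ± 1.42, edgeR adjusted p = 0.0907); it was named after its values were seen.

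Of 20 listed acute-phase genes beside Saa3 and Hp, 12 could be tested and 0 passed in edgeR, where 1.58% of all genes were called higher. Their fitted change in CONV was positive for 10 of 12, against 50.4% of all genes, with a median of 0.85 on the log2 scale against 0.00 over all genes. An unadjusted p under 0.05 in either direction was found for 5 of 12, against 23.4% of all genes. The largest changes, singled out after the values were seen, were 2.92 ± 0.65 (log2 ± SE) for Hpx, the hemopexin gene, and 1.73 ± 0.52 for Serpina3n, a serine protease inhibitor gene, with edgeR adjusted p of 0.0525 and 0.104. Complement C3 had 246 ± 140 CPM (SD, n = 3) in CONV and 193 ± 153 CPM (SD, n = 7) in the other libraries, a change of 0.35 ± 0.62, and Steap4, a metalloreductase gene, changed by 0.80 ± 0.45 (log2 ± SE). Saa1, chosen after its values were seen, had 0 counts in the 3 sham libraries and 4, 32 and 175 counts in CONV, far under the counts of Saa3. Among the regulators, Socs3, a feedback inhibitor of cytokine signalling, rose by 2.23 ± 0.44 and Cebpd, a transcription factor of acute-phase genes, by 1.85 ± 0.32 (2 of 8 tested, edgeR adjusted p of 0.041 and 0.0352).

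Of 9 tested genes for receptors and partners of the encoded proteins, 0 passed in edgeR and 1 had an unadjusted p under 0.05. Over all genes tested, 1.58% were called higher and 23.4% had an unadjusted p under 0.05 in either direction. Their fitted change was positive for 9 of 9, against 50.4% of all genes, with a median of 0.37 on the log2 scale. Anxa1, which encodes a ligand of formyl peptide receptors, changed by 0.33 ± 0.15, and Jak1, a kinase used by the receptor chain that Il4ra encodes, by 0.26 ± 0.19 (log2 ± SE). Of 8 tested genes of the type 2 response, in which Il4ra acts, 1 rose, with a median of 0.25. It was Chil3, which encodes a chitinase-like protein that mouse neutrophils as well as macrophages make, with 5.01 ± 1.04 (edgeR adjusted p = 0.0474). Of the paralogs, S100a4 rose by 1.44 ± 0.30 and S100a6 by 0.81 ± 0.17 (log2 ± SE, 2 of 3 tested, edgeR adjusted p of 0.0474 for both).

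By likeness over the 10 skin libraries, the mean standardised log2 level of the 10 genes was most like Olfr1033 (Pearson r = 0.997), Trem1 (0.992), Plaur, Chil3, Hdc and Il1b (0.990 each), among 16248 other genes. The 10 points share libraries and fall into sham, FLASH and CONV, so these values describe the order of libraries. Olfr1033, annotated as an olfactory receptor gene, stood at 14.9 to 23.1 CPM in the sham libraries and FLASH replicates 1 to 3, 78.0 CPM in FLASH replicate 4 and 106, 210 and 384 CPM in CONV. Plaur, the urokinase receptor gene, and Hdc, the histamine-forming enzyme gene of mast cells and neutrophils, also had their lowest CONV library above FLASH replicate 4.

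Markers of several cell types moved with the 10 genes in skin. Calls below are of CONV against the other skin libraries, where 1.58% of all genes were called higher. The summed level of 7 neutrophil markers was 19.5 to 21.2 CPM in sham, 18.0 to 41.2 CPM in FLASH and 43.5 to 109 CPM in CONV, with 2 of 5 tested called higher in edgeR, and Cxcr2 made up most of the sum in every skin library. That of 8 monocyte and macrophage markers was 148 to 257 CPM, 126 to 371 CPM and 292 to 792 CPM in the same order, with 2 of 8 called. The 4 markers of injured epidermis (Krt6a, Krt6b, Krt16 and Sprr1b) summed to 48.7 to 136 CPM in sham, 70.6 to 6860 CPM in FLASH and 4899 to 21330 CPM in CONV, with 0 of 4 called. The epidermal sum was highest in CONV replicate 2 and lowest within CONV in replicate 3, whereas the neutrophil and macrophage sums were highest in CONV replicate 3. For the neutrophil sum this followed Cxcr2, with 82.1 CPM in CONV replicate 3 and 35.2 CPM in CONV replicate 2. Within CONV, Mmp8, Ly6g and Camp were also highest in replicate 3, but Ngp, Cd177 and Ltf were highest in replicate 2. FLASH replicate 4 had the highest epidermal sum of the FLASH libraries. No marker of these 3 lists was at 0 in a whole group, and the part of these cell types in the results was not tested. Red blood cell markers summed to 7.54 to 14.3 CPM in CONV and 9.58 to 21.1 CPM in the other skin libraries. Of these 3 markers, 1 could be tested. The haemoglobin gene Hbb-bs, named after its values were seen, stood at only 0 to 1.25 CPM in skin, highest in CONV replicate 3. The sum therefore rests mainly on another gene and cannot show how much blood the skin libraries held. The 4 fibroblast markers were higher in CONV (6929 to 20850 CPM, 2 of 4 called) than in the other libraries (3796 to 5479 CPM).

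In muscle the 10 genes were low, and 3 of them, Saa3, Hp and Il4ra, passed the filter on low counts. None of the 3 was called in CONV against the other 7 libraries in edgeR, where 0.0459% of all genes were called higher, or in DESeq2. Il4ra had an unadjusted p under 0.05 (1 of 3, against 5.83% of all genes). It stood at 3.63, 3.82 and 4.57 CPM in sham, 3.75, 3.23, 3.27 and 5.08 CPM in FLASH and 5.48, 6.76 and 4.99 CPM in CONV. CONV replicate 3 lay just under FLASH replicate 4, and the change was 0.55 ± 0.17 (log2 ± SE, edgeR adjusted p = 0.199). Hp ranged from 0.593 to 5.26 CPM in sham, 0.716 to 8.11 CPM in FLASH and 4.11 to 11.6 CPM in CONV (1.08 ± 0.67, edgeR adjusted p = 0.564). Saa3 had 5 to 13 counts in every muscle library and did not separate the groups (0.12 ± 0.35, edgeR adjusted p = 0.929).

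The other 7 genes together had 4, 7 and 8 counts in the sham muscle libraries, 8, 3, 3 and 12 in FLASH and 15, 102 and 27 in CONV. CONV replicate 2 stood apart, with 21 counts of S100a8, 36 of S100a9, 16 of Lcn2, 22 of Csf3r and 5 of Retnlg, where no sham or FLASH library had more than 2 counts of S100a8 or S100a9, 3 of Lcn2, 7 of Csf3r or any of Retnlg. The summed counts of S100a9 in CONV over those in the other muscle libraries, scaled by library totals, gave a ratio of 26.4 with a 95% interval of 9.62 to 101 from 45 and 4 counts, and those of S100a8 a ratio of 13.6 (5.21 to 45.0). Retnlg was at least 4.69-fold higher in CONV than the floor of 3 counts over the other 7 libraries. Acod1 had 3 counts, all in CONV replicate 3. These intervals cover counting error and not the spread between libraries, and without the filter on low counts edgeR called S100a9 alone among the 10 (4.32 ± 0.85 on the log2 scale, adjusted p = 0.0446), and 0.104% of all genes were called higher.

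Red blood cell markers did not follow this pattern in muscle. The red blood cell sum was 136 CPM in CONV replicate 2, but 1082 CPM in CONV replicate 3, 81.9 CPM in CONV replicate 1 and 42.7 to 381 CPM in the sham and FLASH libraries. Neutrophil markers summed to 4.27 CPM in CONV replicate 2 and to 1.41 to 2.61 CPM in the other 9 muscle libraries, and Ly6g had no count in any of the 10.

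**Figure D5:**
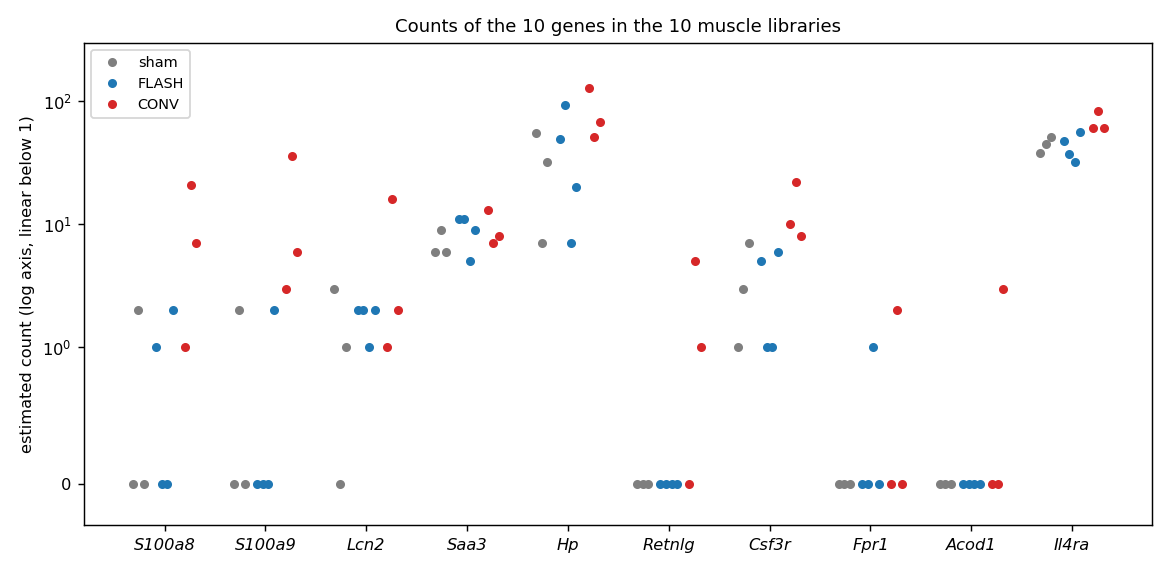
Estimated counts of each of the 10 genes in the 10 muscle libraries, on a logarithmic axis that is linear below 1, with sham, FLASH and CONV side by side. All genes but Saa3, Hp and Il4ra stay at 7 counts or fewer in every sham and FLASH library, and the highest points of S100a8, S100a9, Lcn2, Csf3r and Retnlg all belong to CONV replicate 2.

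The difference between tissues in the response to CONV was tested for all 10 genes as an interaction over the 20 libraries, and none passed in edgeR, where 0.0885% of all genes passed in this direction. For Saa3, the CONV change was larger in skin than in muscle by 5.28 ± 1.36 (log2 ± SE, edgeR adjusted p = 0.0911), and DESeq2 called it, with 1.74% of all genes called in this direction. The difference was 1.73 ± 0.57 for Il4ra (edgeR adjusted p = 0.154) and 1.35 ± 1.08 for Hp (edgeR adjusted p = 0.566). For S100a8, S100a9, Lcn2, Retnlg, Fpr1 and Acod1, counts in muscle were few and the standard errors ran from 2.19 (Retnlg) to 11.2 (Acod1). A difference between tissues was thus not detectable for them at this depth. Without skin FLASH replicate 4, 3 of the 10 passed in edgeR (Saa3, Il4ra and Csf3r), where 2.28% of all genes did, and without skin CONV replicate 1 Saa3 did, where 2.23% of all genes did.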

How the data were processed

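RNA was sequenced in 20 libraries of skin and muscle, made from total RNA after removal of ribosomal RNA with a stranded kit, per the labels' protocols. The authors deposited, per transcript, an estimated count and a TPM value (corrected for length and scaled to a fixed sum), not normalized further and not pooled; kallisto and mm10 are named in the submitters' processing notes, but no annotation release. Of 116116 transcripts, 98.5% matched GENCODE M21 (GRCm38) by identifier without version. The rest, 0.873% to 1.85% of a library, was dropped. For each of 35579 genes the estimated counts were added up, then rounded, which can misplace reads that near-identical transcripts share.

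Levels are CPM (counts scaled to a common library size) with TMM scaling. Tests used edgeR 4.0.16 (R 4.3.3): quasi-likelihood, robust, TMM, the filterByExpr filter by group, Benjamini-Hochberg adjustment over all genes tested (20026 in skin, 13080 in muscle, 19199 for the difference between tissues) and called below 0.05. Within a tissue, 1 fit held all 3 groups, and CONV against the other 7 libraries was fitted with these as 1 group. Standard errors are the log2 change divided by the square root of F. The procedure was tested on simulated data, with a smaller spread between libraries than these genes had in CONV skin. Intervals of count ratios are exact at 95% and, like floors of 3 counts, cover counting error only. Alternatives were DESeq2 1.42.0, RLE size factors, no filter, files by library name, the disagreeing libraries left out, a replicate block and each library left out. In the block, FLASH replicate 4 has a term of its own, as no other group has a replicate of that number. The fit without the 2 muscle-rich skin libraries was added after seeing the data.

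The 10 genes and the 8 gene lists (88 entries) and 13 marker lists were chosen with earlier results of these data known. Named beside the 10 genes are, per list, up to 5 genes past the threshold with the largest change, or the 2 with the highest level where none passed, and 6 genes by likeness of log2 level with a mean of at least 1 CPM. Exceptions are stated where they occur.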

Additional observations from a re-analysis of the deposited data

Results flagged for a closer look

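In groups of 4 libraries, the highest or lowest library was set apart where its gap to the nearest other exceeded Dixon's 95% limit as a share of the range of the group. This was tested for the 10 genes in the FLASH groups of both tissues, 20 groups in all. Chance alone sets apart about 1 group in 20 where values are normally distributed, which these CPM values need not be. A group with only 1 library above 0 is always set apart, as for Retnlg in skin. Retnlg and Acod1 had no count in the muscle FLASH libraries, so those groups could not be judged. In skin, FLASH replicate 4 was set apart as the highest FLASH library for 9 of the 10 genes, all but Hp. Its levels were 32.3 CPM for S100a8, 11.1 CPM for S100a9 and 14.2 CPM for Lcn2. They were 50.1 CPM for Saa3, 0.638 CPM for Retnlg, 13.1 CPM for Csf3r, 2.70 CPM for Acod1, 149.6 CPM for Il4ra and 0.486 CPM for Fpr1. The 9 genes are not independent of each other, since they were read from the same library. The summed injured-epidermis markers of that library were 6860 CPM, against 70.6 to 795 CPM in the other 3 FLASH libraries, and its skeletal muscle markers were 92.0 CPM.

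In muscle, 2 low genes were set apart on counts of 2 or fewer: S100a9 at 0.181 CPM in FLASH replicate 4 (2 counts, the other 3 libraries at 0) and Fpr1 at 0.102 CPM in FLASH replicate 3 (1 count, the other 3 libraries at 0). Such counts lie under the floor of 3 counts.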

How the results depend on the processing

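Of 935 values of single genes recomputed under the alternatives, 809 kept their direction and their side of the threshold, 60 lost the call, 40 gained it and 26 changed sign. In muscle and for the difference between tissues, these values cover only Saa3, Hp and Il4ra. For CONV against the other skin libraries, 6 of the 10 genes were called. The number was 0 when libraries whose file name disagreed were dropped, 0 without the 2 muscle-rich libraries, 10 with DESeq2, 5 with RLE size factors, 5 without the filter, and 0 to 9 when a library was left out. No gene of the whole table passed in the fits without the disagreeing or the muscle-rich libraries. For CONV against sham in skin, 0 became 8 with DESeq2, 1 with the replicate block and 0 to 8 with a library left out. For CONV against FLASH in skin, 0 became 4 with DESeq2, which gave no p-value for S100a9 and Csf3r in either comparison. In muscle, CONV against the other libraries went from 0 to 1 without the filter. The difference between tissues went from 0 to 1 with DESeq2 and to 0 to 3 with a library left out; assigning files by library name leaves this fit as it is and was not run. The cause of these shifts was not tested.

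The sign changed only for values that had not passed. In skin, FLASH against sham became -1.64 for Retnlg and -0.29 for Fpr1 with the replicate block, and with a library left out ran from -1.78 to 5.29 and from -0.40 to 5.08. For Hp it became -0.92 by library name, -0.42 without the disagreeing names and -0.28 with the block, and ran from -0.075 to 0.95. In muscle with a library left out, Saa3 ran from -0.25 to 0.31 in CONV against the rest, from -0.047 to 0.51 against sham and from -0.38 to 0.18 against FLASH, the last being 0.076 by library name and 0.022 with the block. FLASH against sham in muscle became -1.05 by library name and -1.53 without the disagreeing names for Hp, and 0.35 and 0.48 for Il4ra. With a library left out these ran from -0.38 to 1.10 and from -0.23 to 0.042. Outside the counted values, the difference between tissues fell as low as -0.26 for Retnlg and -0.14 for Fpr1. In the main edgeR fit it was 0.40 and 3.66, and neither passed.

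Same-numbered libraries of different groups did not deviate together: their correlations ran from -0.71 to 0.52 in skin and from -0.23 to 0.21 in muscle, so the numbers were not taken as pairs. With the replicate block, 9 of the 10 genes were called for CONV against the other skin libraries, where 953 of 20026 genes were called higher. Since only FLASH has a replicate 4, the block also takes that library out of the comparison. Results with the block are thus not separate from those without FLASH replicate 4. Depth limits the 7 low genes in muscle, where a library of 10198699 to 12336479 counts gave 0 to 36 counts per gene.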

Other observations

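The following genes were chosen for mention after their values were seen. Il17a, a cytokine gene of T cells that induces neutrophil chemokines in epithelium, had 0 counts in the 3 sham libraries and FLASH replicates 1 to 3, 1 count in FLASH replicate 4 and 5, 1 and 30 counts in CONV. Hpx, which encodes the haem-binding hemopexin, had 3 to 15 counts in the sham and FLASH libraries and 10, 22 and 161 counts in CONV. Ngp, a neutrophil granule gene, had 2 to 30 counts in sham and FLASH skin and 17, 143 and 61 counts in CONV, with its highest library in CONV replicate 2, as for S100a8, S100a9 and Retnlg. The 4 T cell markers summed to 17.1 to 22.1 CPM in CONV and 16.5 to 35.1 CPM in the other skin libraries. The 3 mast cell markers summed to 34.8 to 80.2 CPM in CONV and 12.4 to 66.6 CPM in the other skin libraries.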
